A study of Homo sapiens with 12 samples.

Results

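PC3 and MG63 cells were compared in the libraries that had received the control siRNA, 4 of the 12 libraries of the study. The 2 PC3 and 2 MG63 siControl libraries were chosen by their labels alone, with no measured value used. The other 8 libraries are the same cell lines after siRNA against LARP4A or LARP4B, a pair of related RNA-binding proteins. PC3 is an established human cell line from a prostate adenocarcinoma and MG63 is an established human line from an osteosarcoma, a tumour of bone. Both are labelled wild type. Both groups carried 10 nM of a siRNA that targets no gene, delivered with a lipid reagent, for 72 h before poly(A) RNA was taken. PC3 grew in RPMI medium and MG63 in Alpha-MEM, each with 10% serum, so the effect of the line and that of its medium cannot be told apart. Each tumour type is represented by 1 line. The study gives 2 biological replicates per condition without saying whether they were separate cultures. The p-values here rest on the spread between replicate libraries, estimated in 1 fit of all 12 libraries.

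Epithelial cells, from which carcinomas arise, are joined by cadherin and catenin junctions, tight junctions and desmosomes, and integrins fix them to a laminin sheet. Osteosarcomas arise from bone-forming mesenchyme, whose cells are embedded in a matrix of fibrillar collagen that they secrete, and which respond to PDGF, BMP and Wnt signals. Transcription factors of the ZEB, SNAI and TWIST families repress epithelial genes such as the one for E-cadherin, in part by binding E-boxes in their promoters, whereas the ESRP splicing factors and factors such as ELF3 and FOXA1 belong to the epithelial side.

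The siControl libraries had totals of 17960001 and 19044799 fragments in PC3 and 18094342 and 19092737 in MG63, worked out from the deposited counts and FPM (defined next). A fragment is 1 unit of sequence counted to a gene, FPM is that count scaled to the library total, and FPKM is FPM per kilobase of gene model. Levels below are mean ± SD FPKM over the 2 libraries of a line (n = 2), written PC3 against MG63, and log2 differences are given ± standard error. Log2 expression correlated at 0.992 between the PC3 libraries and 0.994 between the MG63 libraries across genes, against 0.728 to 0.731 between the lines. A count of 3 fragments, taken as the limit of detection per library, equals 0.157 to 0.167 FPM.

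Of 16066 genes tested, 12979 (80.8%) differed between PC3 and MG63 at an adjusted p under 0.05 in edgeR's quasi-likelihood test. Of these, 6549 genes (40.8%) were higher in PC3 and 6430 (40%) were higher in MG63. A difference of at least 2-fold was reached by 3533 genes (22%) toward PC3 and 3510 (21.8%) toward MG63, 7043 in all, and 2555 genes differed by at least 8-fold. The median log2 difference over all tested genes, taken as PC3 minus MG63 here and throughout, was -0.0045. At least 1 FPKM was reached by 12290 genes in PC3 and 12148 in MG63, and by 10849 of them in both. With so large a share of genes passing the test, lists of genes are described below by how many members passed a 2-fold difference in each direction and by their median, to be read against these shares of all genes.

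Of the 2 genes targeted elsewhere in the study 1 passed the test between the lines. LARP4, which encodes LARP4A, was found at 19.2 ± 0.344 against 8.34 ± 0.227 FPKM, with a log2 difference of 1.02 ± 0.062 (adjusted p = 2.1e-10). LARP4B was at 7.1 ± 0.112 against 6.71 ± 0.0925 FPKM and did not pass (adjusted p = 0.17).

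Junction and keratin genes of epithelial cells were higher in PC3. Of 42 such genes 37 were tested, 30 were at least 2-fold higher in PC3 and 3 at least 2-fold higher in MG63, with a median log2 difference of 5.72, or 5.01 when genes with no fragment in 1 line were set to their bound. Their summed level was 2011 and 1982 FPKM in PC3 against 379 and 387 FPKM in MG63. EPCAM (chr2:47369311-47387020, hg38), an epithelial surface adhesion molecule, had 704 and 734 fragments in the PC3 libraries and 0 and 0 in the MG63 libraries. That is at least 241-fold higher in PC3, computed against the limit of 3 fragments per library. CDH1 (chr16:68737292-68835536), the gene for E-cadherin, had 321 and 300 fragments in the PC3 libraries and 0 and 1 in the MG63 libraries. The libraries of the lines did not overlap, with a pooled ratio of 624 (95% counting interval 112 to 24688), an exact binomial interval that covers counting error only, as do all such intervals below. The level of CDH1 in PC3 was nevertheless low, at 3.45 ± 0.307 FPKM, beside CDH3 (P-cadherin), the neighbouring gene, at 20.9 ± 0.49 FPKM in PC3 and 0 and 2 fragments in MG63.

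CLDN4, a tight junction claudin, was the most abundant claudin listed in PC3, with 9112 and 9656 fragments in the PC3 libraries and 6 and 2 in the MG63 libraries and a pooled ratio of 2358 (95% counting interval 1196 to 5462). DSP, which encodes desmoplakin of the desmosome, had 2130 and 2391 fragments in PC3 against 3 and 2 in MG63, a pooled ratio of 909 (95% counting interval 389 to 2799.8). F11R, the junctional adhesion molecule A, had 1658 and 1631 fragments in PC3 against 3 and 2 in MG63. The desmosomal genes DSC2 and DSG2 stood at 11.4 and 19.6 FPKM in PC3 against 0.0175 and 0.325 in MG63. MAL2, a protein of apical transport, was at 272 ± 0.454 against 0.191 ± 0.0611 FPKM, with a log2 difference of 10.28, and SPINT1, an inhibitor of surface serine proteases, was at least 234-fold higher in PC3. Keratins were seen in MG63 as well, and in RNA from whole cultures fewer cells expressing a gene and less RNA per cell cannot be told apart. KRT8, a keratin of simple epithelia, was at 205 ± 3.38 against 29.7 ± 0.717 FPKM (log2 difference 2.61 ± 0.044, adjusted p = 2.6e-17), and its partner KRT18 at 263 ± 0.266 against 40.1 ± 0.201 FPKM (log2 difference 2.53 ± 0.047). The gene models of KRT8 and KRT18 overlap, and how the counting treated strand is not given in the sources used here. KRT19 differed more widely, at 364 ± 13.9 against 2.09 ± 0.0246 FPKM, while KRT7 was higher in MG63, at 6.33 ± 0.309 against 14.5 ± 0.129 FPKM.

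Of the alpha, beta and p120 catenins, which bind cadherins inside the cell, none was called higher in PC3. CTNNA1 (chr5:138753386-138935034), encoding alpha-catenin, had 30 and 37 fragments in the PC3 libraries and 12438 and 13636 in the MG63 libraries. Its level of 0.468 ± 0.0499 against 181 ± 4.9 FPKM gave a log2 difference of -8.77 ± 0.093 (adjusted p = 2.4e-19), the largest toward MG63 among the junction genes. Beta-catenin (CTNNB1) was at 65 ± 3.81 against 66.7 ± 2.2 FPKM, a log2 difference of -0.22 ± 0.051 that passed the test at an adjusted p of 0.0011 but not with library totals in place of TMM scaling (log2 difference -0.06, adjusted p = 0.27), and p120-catenin (CTNND1) at 31.8 ± 1.21 against 29.8 ± 0.185 FPKM did not pass (adjusted p = 0.13).

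**Figure D1:**
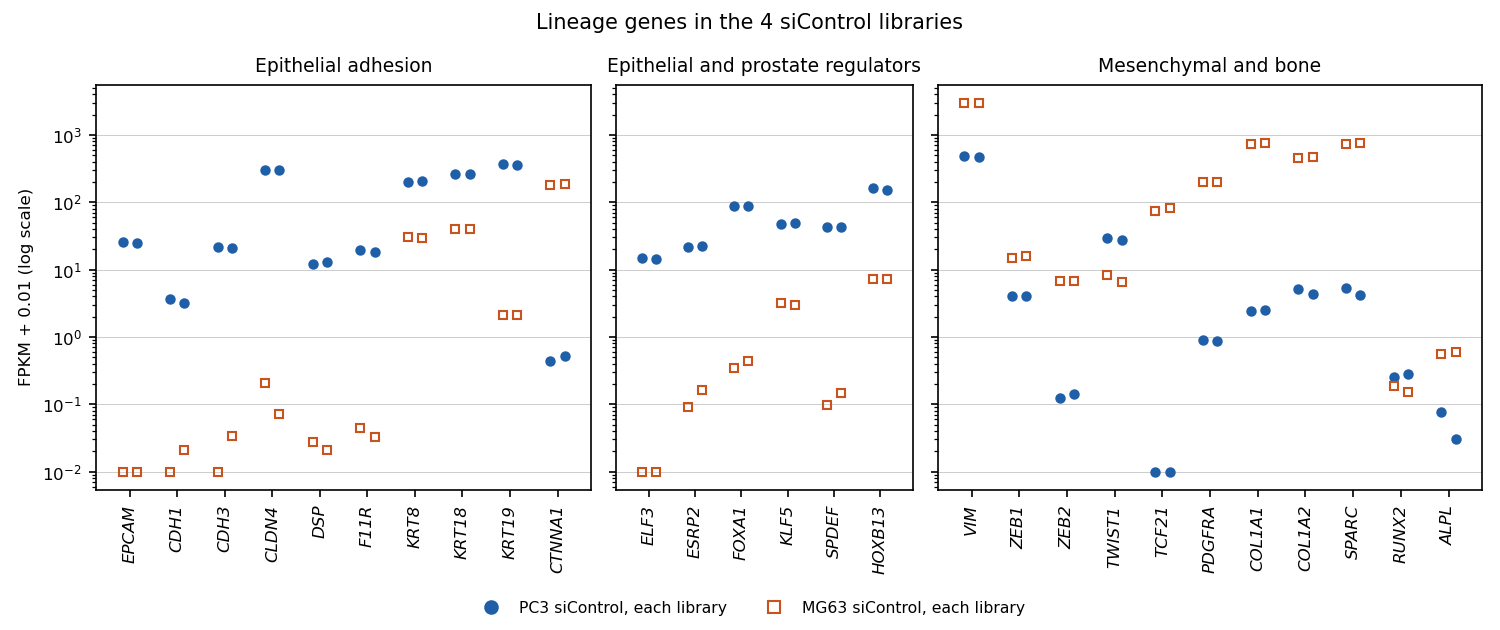
FPKM + 0.01 on a log axis of selected epithelial, prostate, mesenchymal and bone genes, 1 point per siControl library. The 2 libraries of a line lie close together, EPCAM, CLDN4 and ELF3 are above in PC3, at 25.1, 299 and 14.7 FPKM, and COL1A1, PDGFRA and TCF21 in MG63.

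Among 18 regulators of the epithelial state 13 were tested, 9 of them at least 2-fold higher in PC3 and 2 in MG63, with a median log2 difference of 3.80, or 3.57 with genes at 0 set to their bound. ELF3, an ETS factor of epithelia, had 859 and 893 fragments in the PC3 libraries and 0 and 0 in the MG63 libraries, which is at least 293-fold higher in PC3. FOXA1, a pioneer factor that opens chromatin for other factors, was at 88.1 ± 0.0274 against 0.382 ± 0.0722 FPKM (log2 difference 7.66 ± 0.085), and ESRP2 at 22.2 ± 0.451 against 0.116 ± 0.0506 FPKM. ESRP1 was sparse, with 36 and 31 fragments in PC3 against 0 and 1 in MG63, and GRHL2, which encodes another epithelial transcription factor, had 3 and 4 fragments in PC3 against 0 and 0 in MG63 and was not tested. Higher in MG63 were TFAP2C (log2 difference -1.54) and TRPS1 (-1.15).

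The 250 bases upstream of the annotated starts of 3 of these genes are shown because they were among the genes furthest toward PC3, with at most 6 fragments in any MG63 library, and because the E-box that ZEB and SNAI factors are known to bind occurs in DSP and ELF3 and not in CLDN4. The letters searched were CAGGTG, read on the other strand as CACCTG, and matches are in capitals. The sequences are from RefSeq (GRCh38.p14), plus strand, 5′ to 3′, chr7:73830746-73830995 for CLDN4, chr6:7541421-7541670 for DSP and chr1:202010337-202010586 for ELF3.

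CLDN4: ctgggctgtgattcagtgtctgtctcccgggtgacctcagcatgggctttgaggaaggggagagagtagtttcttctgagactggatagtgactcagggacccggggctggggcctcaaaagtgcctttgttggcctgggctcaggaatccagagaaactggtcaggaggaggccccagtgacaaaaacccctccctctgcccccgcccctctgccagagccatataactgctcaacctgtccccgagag

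DSP: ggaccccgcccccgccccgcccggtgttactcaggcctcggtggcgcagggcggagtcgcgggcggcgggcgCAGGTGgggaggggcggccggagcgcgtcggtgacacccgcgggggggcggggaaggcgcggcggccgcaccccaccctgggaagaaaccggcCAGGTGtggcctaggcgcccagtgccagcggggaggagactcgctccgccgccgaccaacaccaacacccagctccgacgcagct

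ELF3: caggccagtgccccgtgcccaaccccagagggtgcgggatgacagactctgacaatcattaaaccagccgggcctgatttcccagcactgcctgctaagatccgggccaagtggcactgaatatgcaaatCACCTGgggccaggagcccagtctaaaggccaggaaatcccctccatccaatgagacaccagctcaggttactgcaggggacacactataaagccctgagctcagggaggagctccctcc

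The first bases of the matches lay 178 and 85 bases before the start of DSP and 120 bases before that of ELF3. Of 35116 promoter windows of this length in the table, 6143 (17.5%) held the motif. Counted by symbol, 5635 of 27305 (20.6%) had the motif in at least 1 window. Entries for 20 of the 39 junction genes and regulators at least 2-fold higher in PC3 were matched, and 12 of these 20 (60%) had it. The other members had no entry, so no share for the whole list is given, and the difference was not tested. A match is a description of the letters and not evidence of binding.

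Genes of the prostate lineage were divided between the lines. Of 24 genes 15 were tested, 7 were at least 2-fold higher in PC3 and 5 in MG63 (median log2 difference 0.31). HOXB13, a homeobox factor of the posterior body that marks prostate, had 8760 and 8650 fragments in the PC3 libraries and 391 and 413 in the MG63 libraries and stood at 155 ± 7.81 against 7.12 ± 0.00519 FPKM (log2 difference 4.27 ± 0.061, adjusted p = 4.4e-18). SPDEF, an ETS factor of luminal prostate cells, was at 42.9 FPKM in PC3 with 3 and 5 fragments in MG63. AMACR and SLC45A3, both used as prostate markers, were higher in PC3 by 2.79 and 2.46 on the log2 scale. Other prostate markers were low or unseen in PC3. KLK3, which encodes prostate-specific antigen, had 1 and 0 fragments in PC3 against 0 and 0 in MG63, and FOLH1 and KLK2 had 0 fragments in all 4 libraries. Higher in MG63 were the zinc finger gene GATA2 (log2 difference -2.49) and NDRG1, a hypoxia-responsive gene, at 270.0 ± 40.4 against 820.3 ± 148 FPKM. Of 13 basal and neuroendocrine markers 7 were tested (median log2 difference 0.083), with FOXA2 at least 2-fold higher in PC3 (2.01) and NCAM1 and KRT14 at least 2-fold higher in MG63. Their pooled ratios were 212 (95% counting interval 82.4 to 779) and 21.3 (95% counting interval 8.85 to 66.9).

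The collagens of bone were higher in MG63, while of the master factors RUNX2 did not pass the test and SP7 was not seen. Of 26 genes 15 were tested, 3 at least 2-fold higher in PC3 and 8 in MG63 (median log2 difference -1.08). COL1A1, the main collagen chain of bone, had 253 and 278 fragments in the PC3 libraries and 79615 and 84130 in the MG63 libraries. Its level of 2.43 ± 0.061 against 745 ± 0.764 FPKM corresponded to a log2 difference of -8.44 ± 0.077 (adjusted p = 8.3e-20). COL1A2, the partner chain, was at 4.75 ± 0.657 against 466 ± 11.6 FPKM, and SPARC, a collagen-binding protein of bone, at 4.75 ± 0.839 against 733 ± 18.8 FPKM. TNFRSF11B, the gene for osteoprotegerin, which blocks osteoclast formation, was at 2.22 ± 0.567 against 58.9 ± 2.75 FPKM, and DLX3, a homeobox gene of skeletal tissue, had 0 and 1 fragments in PC3 against 295 and 309 in MG63. RUNX2, the transcription factor that starts osteoblast formation, had 25 and 29 fragments in the PC3 libraries and 18 and 15 in the MG63 libraries and did not pass (log2 difference 0.53 ± 0.37, adjusted p = 0.2). SP7, the osteoblast factor downstream of RUNX2, and the matrix gene IBSP had 0 fragments in all 4 libraries. SPP1 had 0 and 1 fragments in PC3 against 0 and 0 in MG63, and ALPL, the alkaline phosphatase of mineralising cells, had 3 and 1 fragments in PC3 against 25 and 28 in MG63. The bone morphogenetic protein BMP2 was higher in PC3, at 4.37 ± 0.44 against 0.0985 ± 0.00699 FPKM, and so was BMP4 (log2 difference 1.82). Thus several defining markers of mature osteoblasts were at or near 0 in the line labelled osteosarcoma, and the same holds for KLK3 and FOLH1 in the line labelled prostate adenocarcinoma.

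Mesenchymal regulators favoured MG63, with 16 of 23 tested at least 2-fold higher there and 5 in PC3 (median log2 difference -2.74). TCF21, a helix-loop-helix factor of mesenchyme, had 0 and 0 fragments in the PC3 libraries and 4307 and 5028 in the MG63 libraries, at least 1545-fold higher in MG63, and TWIST2 had 0 and 0 fragments in PC3 against 1053 and 1055 in MG63 (at least 349.6-fold). FOXF1 was at 0.293 ± 0.0556 against 45.3 ± 0.408 FPKM and ZEB2 at 0.122 ± 0.0114 against 6.8 ± 0.0865 FPKM. ZEB1, a repressor of E-cadherin, was present in both lines, with 460 and 482 fragments in the PC3 libraries and 1690 and 1873 in the MG63 libraries. The PC3 libraries were below the MG63 libraries, at 4.08 ± 0.0344 against 15.4 ± 0.533 FPKM (log2 difference -2.09 ± 0.10, adjusted p = 1.4e-11). The direction differed within the families: SNAI1 was higher in MG63 (log2 difference -2.28) and SNAI2 in PC3 (0.97), and TWIST1 was higher in PC3, at 28.4 ± 1.88 against 7.41 ± 1.17 FPKM. FOXL1 was the member furthest toward PC3, at 14.6 ± 0.115 against 0.152 ± 0.0251 FPKM.

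Most mesenchymal and fibroblast markers were higher in MG63, 26 of 34 tested by at least 2-fold against 2 in PC3 (median log2 difference -3.68). Vimentin (VIM), the intermediate filament of mesenchymal cells, had 18660 and 18961 fragments in the PC3 libraries and 116183 and 121895 in the MG63 libraries. It was thus abundant in both lines, at 472 ± 14.2 against 2972 ± 12 FPKM, with a log2 difference of -2.83 ± 0.046 (adjusted p = 1.7e-17). PDGFRA and PDGFRB, the PDGF receptors, stood at 0.88 ± 0.0365 against 198 ± 1.19 FPKM and 0.0752 ± 0.0102 against 13.2 ± 0.135 FPKM. TGFBI, a matrix protein named for its induction by TGF-beta, had 3 and 5 fragments in PC3 against 15537 and 14726 in MG63, and THY1, a surface protein of stromal cells, had 1 and 1 fragments in PC3 against 1494 and 1706 in MG63. CCN2, a secreted target of YAP signalling, was at 50.5 ± 2.52 against 882 ± 38.5 FPKM. The exceptions were both cadherins of mesenchyme: N-cadherin (CDH2) was higher in PC3, at 22.6 ± 0.359 against 7.29 ± 0.106 FPKM, as was CDH11, called osteoblast cadherin, at 34.5 ± 0.408 against 5.18 ± 0.213 FPKM.

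Markers of other tissues were sparse. Of 18 blood, endothelial, neural and liver markers 8 were tested, 2 at least 2-fold higher in PC3 and 5 in MG63, and their summed level was 1.17 and 1.23 FPKM in PC3 and 7.22 and 7.27 FPKM in MG63. CD14, a monocyte gene, had 4 and 6 fragments in PC3 against 58 and 78 in MG63, and CDH5, the cadherin of endothelium, had 0 and 1 fragments in PC3 against 269 and 244 in MG63, while the leukocyte gene PTPRC had 2 and 2 fragments in PC3 against 2 and 7 in MG63 and the liver gene ALB 0 and 1 fragments in PC3 against 0 and 1 in MG63. CD3E of T cells, HBB of red cells, NEUROD1 of neurons and TTR of liver had 0 fragments in all 4 libraries. Of 17 chondrocyte, adipocyte and muscle markers 9 were tested, 6 at least 2-fold higher in PC3 and 2 in MG63 (median log2 difference 1.30). PPARG, the nuclear receptor that drives fat cell formation, was at 60.9 ± 1.35 against 3.23 ± 0.0618 FPKM, SOX9, a factor of cartilage and of epithelial progenitors, at 25.3 ± 1.27 against 7.23 ± 0.284 FPKM, and the cartilage collagen COL2A1 had 126 and 134 fragments in PC3 against 0 and 0 in MG63.

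**Figure D2:**
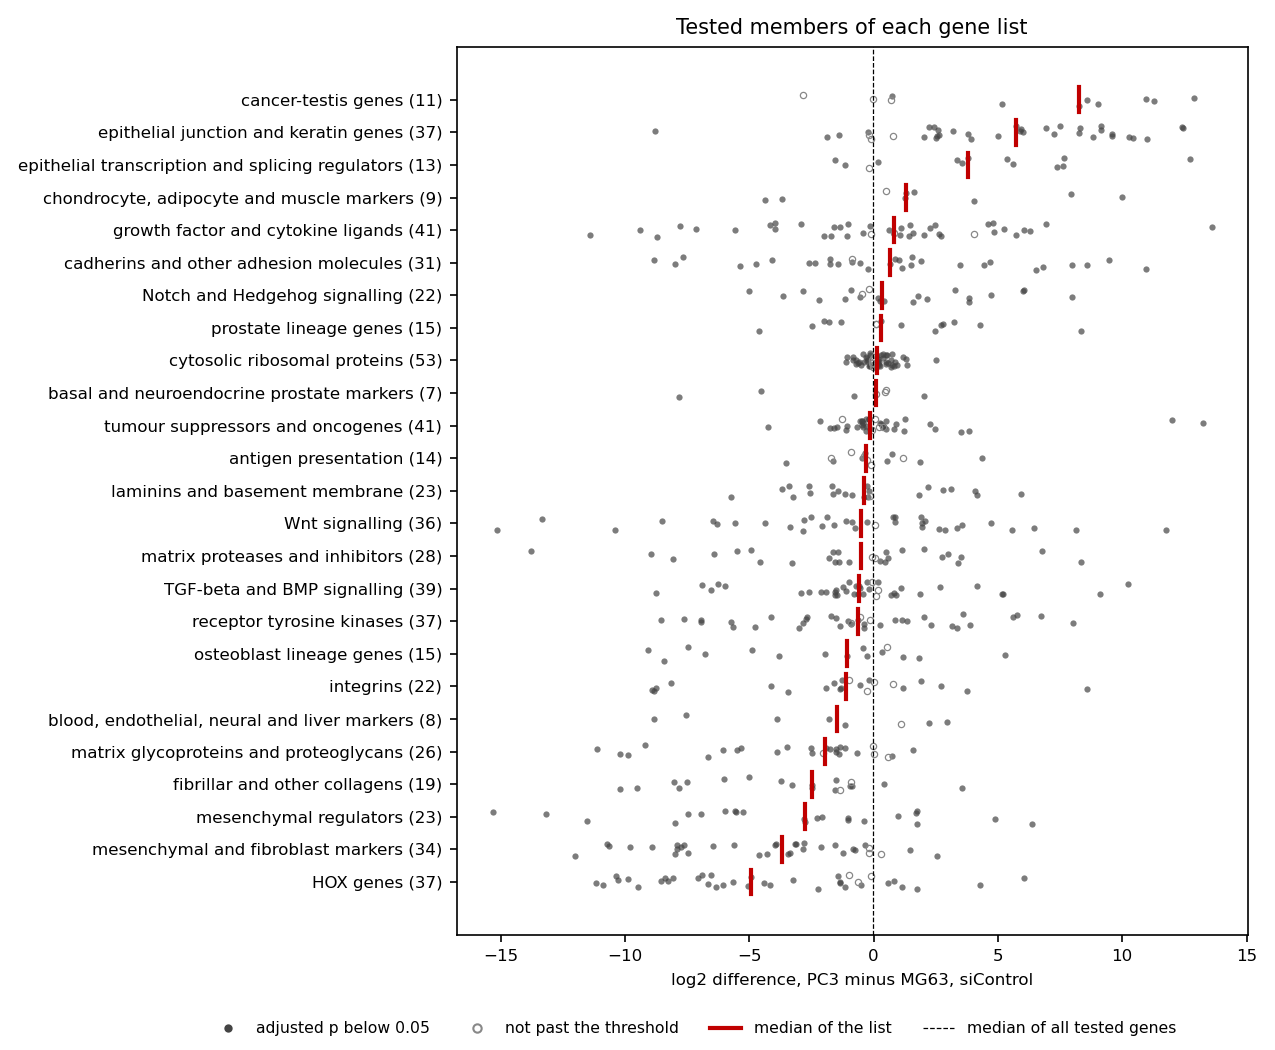
Log2 difference (PC3 minus MG63, siControl) of every tested member of each gene list, filled where the adjusted p was under 0.05, with the median of the list as a red bar and that of all tested genes as a dashed line. The lists of epithelial genes lie toward PC3, and those of mesenchymal markers, collagens and HOX genes toward MG63, with 26 of 34 mesenchymal markers and 27 of 37 HOX genes called toward MG63.

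The molecules by which cells hold to a basement membrane separated the lines by subunit. Of 22 tested integrins 5 were at least 2-fold higher in PC3 and 11 in MG63 (median log2 difference -1.12). ITGB4, the subunit that anchors epithelial cells at hemidesmosomes, had 9797 and 9762 fragments in the PC3 libraries and 20 and 25 in the MG63 libraries and stood at 89.7 ± 3.95 against 0.205 ± 0.0245 FPKM (log2 difference 8.59 ± 0.096, adjusted p = 3.5e-19). Its known partner, ITGA6, was at 55.9 ± 2.09 against 13.2 ± 0.149 FPKM, a smaller difference of 1.90 ± 0.068. The common subunit ITGB1 was closer in the lines, at 246 ± 10.9 against 315 ± 2.32 FPKM, and ITGA3 was at 102 ± 1.88 against 104 ± 2.96 FPKM, a call lost with library totals as the scaling (log2 difference -0.04, adjusted p = 0.31). ITGA2, a collagen receptor subunit, and ITGB8, which activates TGF-beta, were higher in PC3 by 2.70 and 3.75 on the log2 scale. In MG63, the fibronectin receptor ITGA5 (log2 difference -1.36) and the vitronectin receptor chains ITGAV (-1.33) and ITGB3 (-4.13) were higher. ITGA11, a collagen receptor of fibroblasts, had 0 and 4 fragments in PC3 against 912 and 929 in MG63, and ITGA4 had 2 and 4 fragments in PC3 against 1181 and 1201 in MG63.

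Laminins showed the same kind of division, with 7 of 23 tested basement membrane genes at least 2-fold higher in PC3 and 10 in MG63 (median log2 difference -0.39). LAMA3 and LAMB3, chains of an epithelial laminin that the ITGA6 and ITGB4 dimer binds in skin, were higher in PC3. LAMA3 was at 12.5 ± 0.863 against 1.26 ± 0.112 FPKM and LAMB3 at 29.8 ± 0.554 against 3.76 ± 0.0368 FPKM. Chains of other laminins were higher in MG63, among them LAMC1 (13.8 ± 0.49 against 73.8 ± 2.64 FPKM), LAMA4 (2.31 ± 0.186 against 19 ± 0.251 FPKM) and LAMA2 (0.15 ± 0.0411 against 7.18 ± 0.0686 FPKM), together with the linker NID1 (log2 difference -3.38). The LAMA5 and LAMB1 chains differed by -0.24 and -0.39 and passed the test, LAMA5 not with library totals as the scaling (adjusted p = 0.10).

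Collagens and matrix glycoproteins lay toward MG63. Of 19 tested collagens 13 were at least 2-fold higher in MG63 and 1 in PC3 (median log2 difference -2.47), and of 26 matrix glycoproteins and proteoglycans 19 and 1 (median -1.97, or -1.84 with genes at 0 set to their bound). COL3A1, a fibrillar collagen of soft tissue, was at 1.19 ± 0.104 against 776 ± 18 FPKM (log2 difference -9.53 ± 0.087), and COL6A3 at 2.55 ± 0.066 against 581 ± 0.316 FPKM. COL6A1, another chain of collagen VI, was abundant in both lines, at 300.3 ± 13.8 against 512 ± 14.2 FPKM. Fibronectin (FN1) was at 8.61 ± 0.641 against 307 ± 6.88 FPKM and biglycan (BGN) at 0.334 ± 0.0626 against 352 ± 1.66 FPKM, and THBS2, a matricellular thrombospondin, had 3 and 7 fragments in PC3 against 9937 and 10193 in MG63. Syndecans, the proteoglycans that carry heparan sulphate on the surface, went in both directions: SDC1 of epithelia was at 175 ± 5.95 against 51.4 ± 0.889 FPKM, and SDC2 had 4 and 4 fragments in PC3 against 2002 and 2282 in MG63.

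Of 28 tested matrix proteases and inhibitors, 8 were at least 2-fold higher in PC3 and 13 in MG63 (median log2 difference -0.52). MMP2, the gelatinase A gene, had 1 and 4 fragments in the PC3 libraries and 30680 and 34160 in the MG63 libraries, with a pooled ratio of 12904 (95% counting interval 5529 to 39744), and its activator MMP14 was at 37.4 ± 2.6 against 97.1 ± 0.957 FPKM. MMP3 was likewise higher in MG63, at 0.281 ± 0.0513 against 67.2 ± 4.95 FPKM, whereas MMP13, a collagenase, had 254 and 270 fragments in PC3 against 1 and 3 in MG63. The collagenase MMP1 was at 13.6 ± 0.915 against 12.5 ± 0.957 FPKM and did not pass (adjusted p = 0.62). In PC3 the tissue plasminogen activator PLAT (44.1 ± 0.891 against 4.88 ± 0.0364 FPKM) and the serpin SERPINB5 (53.7 ± 1.82 against 7.02 ± 1.13 FPKM) were higher, and in MG63 the urokinase PLAU (98.8 ± 1.91 against 228 ± 5.31 FPKM) and the inhibitor TIMP3 (0.2 ± 0.00835 against 8.1 ± 0.603 FPKM). Among 31 tested cadherins and other adhesion molecules 14 were at least 2-fold higher in PC3 and 11 in MG63 (median 0.67). ALCAM was higher in PC3 (log2 difference 1.56), CD44, a hyaluronan receptor, in MG63 at 45.9 ± 1.33 against 244 ± 3.19 FPKM, and CD82, a tetraspanin described as a metastasis suppressor, was at 0.441 ± 0.0528 against 80 ± 2.9 FPKM.

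Growth factors differed in both directions. Of 41 tested ligands 19 were at least 2-fold higher in PC3 and 16 in MG63 (median log2 difference 0.82). All 35 of these passed in the same direction under both LARP4 siRNAs, as did 6443 of 7043 (91.5%) of all genes with a 2-fold difference. Such full agreement was not particular to ligands and held for all 33 junction and keratin genes with a 2-fold difference. Among ligands of the EGF receptor, AREG (amphiregulin) had 1553 and 1640 fragments in the PC3 libraries and 0 and 0 in the MG63 libraries, at least 534-fold higher in PC3, TGFA was at 6.45 ± 0.698 against 0.15 ± 0.022 FPKM, and HBEGF was higher in MG63 (6.84 ± 0.0568 against 8.13 ± 0.131 FPKM). Higher in MG63 were HGF at 46.1 ± 1.72 FPKM against 0.126 ± 0.038 in PC3, CSF1 at 175 ± 5.75 against 1.4 ± 0.124, and CXCL12, a chemokine of bone marrow stroma, with 0 and 0 fragments in PC3 against 301 and 312 in MG63. FGF18, a growth factor of cartilage and bone, had 2 and 3 fragments in PC3 against 1479 and 1618 in MG63.

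Of 37 tested receptor tyrosine kinases 12 were at least 2-fold higher in PC3 and 16 in MG63 (median log2 difference -0.65). MET, the receptor of HGF, had 9178 and 10470 fragments in the PC3 libraries and 1716 and 1846 in the MG63 libraries. Its level of 77.1 ± 3.98 against 13.9 ± 0.19 FPKM was higher in PC3 (log2 difference 2.29 ± 0.063, adjusted p = 8.9e-15), opposite to the direction of HGF. The related MST1R was at 15.8 ± 0.269 against 0.129 ± 0.035 FPKM. EGFR was close in the lines, at 17.5 ± 1.11 against 20.1 ± 0.0294 FPKM, with a log2 difference of -0.37 ± 0.07 that passed (adjusted p = 1.4e-04). KDR, the VEGF receptor usually found on endothelium, had 770 and 760 fragments in PC3 against 2 and 3 in MG63. MG63 had more FGFR4 (1.37 ± 0.129 against 149.5 ± 1.22 FPKM), FGFR1 (9.99 ± 0.0901 against 69.7 ± 0.126 FPKM), the collagen receptor DDR2 (0.085 ± 0.004 against 28.4 ± 0.0294 FPKM) and IGF1R (0.254 ± 0.0176 against 6.12 ± 0.288 FPKM).

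TGF-beta and BMP genes were all tested, with 8 of 39 at least 2-fold higher in PC3 and 15 in MG63 (median log2 difference -0.60). FST (follistatin), which binds activins, was at 211 ± 9.46 against 29.2 ± 0.886 FPKM, and NOG (noggin), which binds BMPs, at 30.7 ± 0.644 against 0.75 ± 0.287 FPKM. GDF15, a stress-induced member of the family, was at 253 ± 2.69 against 0.404 ± 0.0153 FPKM, and BMP7 had 3 and 2 fragments in PC3 against 1006 and 1000 in MG63. The inhibitory SMAD7, a target of the pathway, was higher in MG63 (2.01 ± 0.12 against 7.57 ± 0.00408 FPKM), and so was ID3 (11.2 ± 1.55 against 74.7 ± 6.64 FPKM). The ligand TGFB1 did not pass, at 60.2 ± 0.46 against 55.1 ± 2.93 FPKM (adjusted p = 0.42), and its receptor TGFBR2 differed by -0.19 on the log2 scale, a call lost with library totals as the scaling (adjusted p = 0.62).

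Wnt genes lay in both directions, 13 of 36 tested at least 2-fold higher in PC3 and 16 in MG63 (median log2 difference -0.50). WNT5B had 0 and 0 fragments in the PC3 libraries and 4079 and 4286 in the MG63 libraries, at least 1386-fold higher in MG63, while WNT7A had 433 and 464 fragments in PC3 against 0 and 0 in MG63 (at least 150.1-fold). Secreted inhibitors of the pathway went in both directions. DKK1 was higher in PC3, at 404 ± 6.37 against 95.8 ± 4.14 FPKM, whereas DKK3 had 1 and 2 fragments in PC3 against 14388 and 15686 in MG63 and SFRP1 was at 0.0896 ± 0.0562 against 111 ± 5.73 FPKM. Among the Frizzled receptors FZD8 was higher in PC3 (41.2 ± 2.27 against 1.39 ± 0.244 FPKM) and FZD7 in MG63 (0.24 ± 0.0894 against 10.1 ± 0.126 FPKM), and AXIN2, a target of the beta-catenin branch, was higher in MG63 (0.487 ± 0.0606 against 4.39 ± 0.265 FPKM).

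Several Notch genes were higher in PC3. Of 22 tested Notch and Hedgehog genes 10 were at least 2-fold higher in PC3 and 5 in MG63 (median log2 difference 0.33). The ligand JAG1 was at 21.9 ± 1.23 against 2.02 ± 0.185 FPKM, and the targets HES1, HEY1 and NRARP were higher in PC3 by 3.82, 3.85 and 4.72 on the log2 scale. The ligand SHH had 307 and 326 fragments in PC3 against 1 and 1 in MG63, while SMO, which transduces the Hedgehog signal, was at 1.35 ± 0.0751 against 8.56 ± 0.335 FPKM and the target and receptor PTCH1 at 0.58 ± 0.00641 against 1.15 ± 0.0048 FPKM, both higher in MG63.

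HOX genes, which record the position of a tissue along the body axis, differed mostly toward MG63. Of 37 tested genes 4 were at least 2-fold higher in PC3 and 27 in MG63 (median log2 difference -4.94). The 4 were HOXA13 (23.8 ± 0.375 against 0.311 ± 0.00337 FPKM), HOXB13 (above), HOXA11 (9.84 ± 0.437 against 2.58 ± 0.102 FPKM) and HOXA3 (2.98 ± 0.284 against 1.18 ± 0.021 FPKM). HOXA10 and HOXA9 were also higher in PC3, by 0.82 and 0.59 on the log2 scale, but HOXA7 was higher in MG63, at 0.295 ± 0.0257 against 8.06 ± 0.223 FPKM. HOXC genes were near 0 in PC3: HOXC10 had 1 and 1 fragments in the PC3 libraries and 892 and 1006 in the MG63 libraries, a pooled ratio of 944 (95% counting interval 261 to 7803), and HOXC12 was at least 71.7-fold higher in MG63. In the HOXB cluster HOXB13 was high in PC3 while HOXB8 (0 and 0 fragments in PC3 against 247 and 277 in MG63), HOXB7 (0 and 1 fragments in PC3 against 393 and 397 in MG63) and HOXB2 (2 and 1 fragments in PC3 against 543 and 546 in MG63) were seen in MG63. HOXD10 and HOXD11 were at least 47.3-fold and at least 50.5-fold higher in MG63. Gene models within a HOX cluster overlap in part, and fragments in shared exons were counted for each model.

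**Figure D3:**
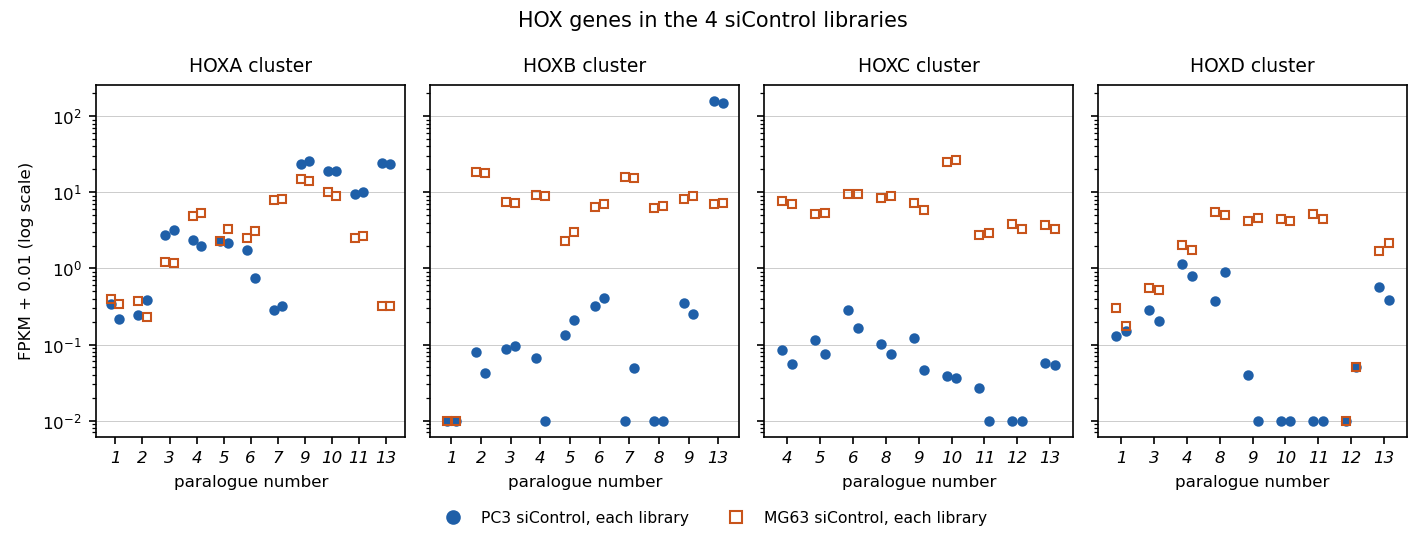
FPKM + 0.01 on a log axis of the HOX genes of each cluster, by paralogue number, 1 point per siControl library of PC3 and MG63. The HOXC genes of PC3 lie near the bottom, and HOXA13 and HOXB13 are the genes furthest toward PC3.

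Of 41 tested tumour suppressor genes and oncogenes 8 were at least 2-fold higher in PC3 and 7 in MG63 (median log2 difference -0.14). CDKN2A (chr9:21967752-21994392), which encodes the cell cycle inhibitor INK4A and the protein ARF, had 2930 and 2814 fragments in the PC3 libraries and 0 and 1 in the MG63 libraries. Its neighbour CDKN2B, which encodes a related inhibitor, had 1240 and 1305 fragments in PC3 against 0 and 0 in MG63, at least 426-fold higher in PC3. MTAP, the next gene in the other direction and an enzyme of methionine salvage, was at 14.4 ± 0.327 against 2.67 ± 0.119 FPKM (log2 difference 2.25 ± 0.093, adjusted p = 1.6e-12). RB1 was at 11.1 ± 0.437 against 14.5 ± 0.207 FPKM and MYC at 147 ± 6.24 against 23.3 ± 0.835 FPKM. HRAS had 794 and 213 fragments in the MG63 libraries, with a log2 difference of -4.23 ± 0.85 that was -2.92 without MG63 replicate 1, and it has further gene models on alternative sequences of the assembly.

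Cancer-testis genes, silent in most adult tissues and expressed in some tumours, were seen in PC3. Of 33 genes 11 were tested, 7 of them at least 2-fold higher in PC3 and none in MG63, with a median log2 difference of 8.24, or 3.71 with genes at 0 set to their bound. Of the 11 tested genes, 7 had no fragment in the siControl libraries of 1 line, and 22 listed genes were not tested. The expression filter can admit a gene through 1 line alone, so the split and the median depend on it and give no direction for the list. The counts for this list use primary loci alone. PRAME, a listed gene that was not tested, has further models on alternative sequences. The largest count on any 1 of them was 0 and 15 fragments in the PC3 libraries against 71 and 71 in the MG63 libraries. MAGEA3 had 874 and 1058 fragments in the PC3 libraries and 0 and 0 in the MG63 libraries, at least 323-fold higher, and MAGEA12 and MAGEA6 were at least 106-fold and at least 85.3-fold higher. MAGEA3 and MAGEA6 are near-identical copies whose fragments counting can divide between them. The related MAGED1, which is expressed widely, did not pass, at 103 ± 1.27 against 93 ± 1.16 FPKM.

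Some genes were well expressed in 1 line and near 0 in the other. A gene was called restricted when it had at most 3 fragments in each library of a line and at least 5 FPKM in each library of the other. Of 28163 genes 129 (0.458%) were restricted to PC3 and 148 (0.526%) to MG63. The restricted genes with the highest levels in PC3 were PRSS3, a mesotrypsin gene (339.8 ± 11.5 FPKM, at least 2409.6-fold higher), the non-coding RNA genes LOC101928902 (167 FPKM) and LINC02582 (152 FPKM), CDKN2A, and AGR2, a disulphide isomerase of mucus-secreting cells (144 ± 8.1 FPKM, at least 1511-fold). Next came PKP1, a desmosomal plakophilin (12291 and 12735 fragments in PC3 against 0 and 1 in MG63), the lectin gene REG4 (111 FPKM), TSPAN8 (102 FPKM), the trefoil factor TFF1 (102 FPKM) and the cytidine deaminase CDA (79 FPKM). REG4, TFF1, AGR2 and TSPAN8 are known from gut epithelium. In MG63 they were DKK3, CAVIN1, the cavin that builds caveolae (249 ± 0.284 FPKM, at least 5473-fold higher), COL23A1 (130.1 FPKM), the glutathione transferase GSTM1 (112 FPKM) and WNT5B. These were followed by TMEM119, a gene of osteoblasts and microglia (95.7 FPKM), the endosomal GTPase RAB5C (90.5 FPKM, at least 979.8-fold), LSP1 (78 FPKM), TCF21, and CAVIN3 (75.4 FPKM).

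Among genes at 1 locus the extreme differences were, beside those already named, the homeobox gene ONECUT3 (at least 1887-fold higher in PC3), HAPLN1, a link protein of cartilage matrix (at least 1841-fold), the receptor ADGRF1 (at least 1079-fold), the glycosyltransferase GALNT6 (at least 1066-fold) and UGT1A1 (at least 851-fold), whose exons are shared with other UGT1A genes. Toward MG63 they were podoplanin (PDPN, at least 987-fold higher), TSPAN14 (at least 653-fold), KAT2A (at least 583-fold) and SLFN11 (at least 526-fold).

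Neighbouring genes were sometimes silent together. Along 13296 genes ordered by position, with at least 1 FPKM in a line, 78 runs of 2 or more neighbours had at most 3 fragments in each library of 1 line and at least 1 FPKM in the other. Of these, 41 runs of 106 genes were silent in PC3 and 37 runs of 103 genes in MG63, and the longest in each held 10 genes. Genes that met this rule with or without such a neighbour are counted in a later section, as restricted at 1 FPKM. How many runs that share of genes would give by position alone was not computed, so the run counts are a description. A PC3-silent run covered 9 genes over 421 kb of chromosome 17 (chr17:42101411-42522579), in order DHX58, KAT2A, RAB5C, GHDC, STAT5B, STAT5A, STAT3, CAVIN1 and ATP6V0A1. STAT3, a transcription factor of cytokine signalling, had 1 and 0 fragments in the PC3 libraries and 3157 and 3298 in the MG63 libraries, and KAT2A, a histone acetyltransferase, had 0 and 0 fragments in the PC3 libraries and 1733 and 1787 in the MG63 libraries. STAT5B had 0 and 0 fragments in PC3 against 796 and 807 in MG63 and ATP6V0A1, a proton pump subunit at the end of the run, had 2 and 3 fragments in PC3 against 612 and 715 in MG63. The genes on either side were seen in both lines, NKIRAS2 at 18 ± 0.354 against 26.1 ± 0.857 FPKM and NAGLU at 5.34 ± 0.458 against 21.3 ± 0.269 FPKM. In the 4 PC3 libraries with LARP4A or LARP4B siRNA, KAT2A, GHDC, STAT5A and STAT5B again had 0 fragments, and ATP6V0A1 had 1 to 6.

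In MG63, 3 neighbours on chromosome 9 (chr9:21967752-23826240) formed a run of CDKN2A, CDKN2B and the neuronal RNA-binding gene ELAVL2, the last with 269 and 322 fragments in PC3 against 0 and 0 in MG63. On the flanks, MTAP had 14.2 and 14.7 FPKM in PC3 and 2.58 and 2.75 FPKM in MG63, and KLHL9, a ubiquitin ligase adaptor, was instead higher in MG63, at 5.12 ± 0.0526 against 73.3 ± 1.48 FPKM. CDKN2A and CDKN2B had 0 fragments in the other 4 MG63 libraries and ELAVL2 at most 1. CDH3 and CDH1, adjacent on chromosome 16 (chr16:68645310-68835536), were also a run silent in MG63.

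The other PC3-silent runs of 3 or more genes lay mostly in gene clusters. The longest was the 10-gene stretch of the HOXC cluster from HOXC13-AS to HOXC9 over 68.0 kb of chromosome 12, which includes the non-coding HOTAIR, followed by HOXC5, HOXC4 and LINC02381. Further HOX runs were HOXD11, HOXD10 and HOXD9 on chromosome 2 and HOXB-AS3, HOXB7 and HOXB8 on chromosome 17. The metallothionein genes MT1L, MT1E and MT1M formed another, as did ZIC4, ZIC1 and LOC440982, then MSC, MSC-AS1 and TRPA1, and SLURP2, LYNX1-SLURP2 and LYNX1. Runs that hold microRNA hosts were DNM3OS with MIR214 and MIR3120, and CHODL with MIR155HG and MIR155. In MG63 the longest was the 10-gene stretch of chromosome 15 (chr15:24823608-25419461) with the imprinted genes SNURF, SNRPN and IPW and the snoRNA host SNHG14, with 6 snoRNA genes between them. Several of these short snoRNA genes were near the limit of detection in PC3 too and were not tested. In PC3, SNORD107 had 4 and 2 fragments, SNORD116-21 had 2 and 4 and SNORD116-22 had 3 and 5. SNORD109A and SNORD109B had the same position and counts. The UGT1A genes of chromosome 2 formed a run of 9 with shared exons, and MAGEA3, CSAG1, MAGEA12, CSAG4 and MAGEA6 a run of 5 on chromosome X. The trefoil factors TFF3, TFF2 and TFF1 and the mucins MUC5AC and MUC5B with MUC5B-AS1 were runs of secreted mucosal proteins. Others were SPINK1, C5orf46 and SPINK13, then KCNMB4, TSPAN8 and LGR5, then SCEL, SLAIN1 and MIR3665, then SOX21, SOX21-AS1 and LOC112268114, then TTC9, LINC01269 and MAP3K9, and the 5 ribosomal RNA genes RNA5-8SN1 to RNA5-8SN5, which are near-identical copies. Overlapping, nested or near-identical models in these runs are not independent genes.

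**Figure D4:**
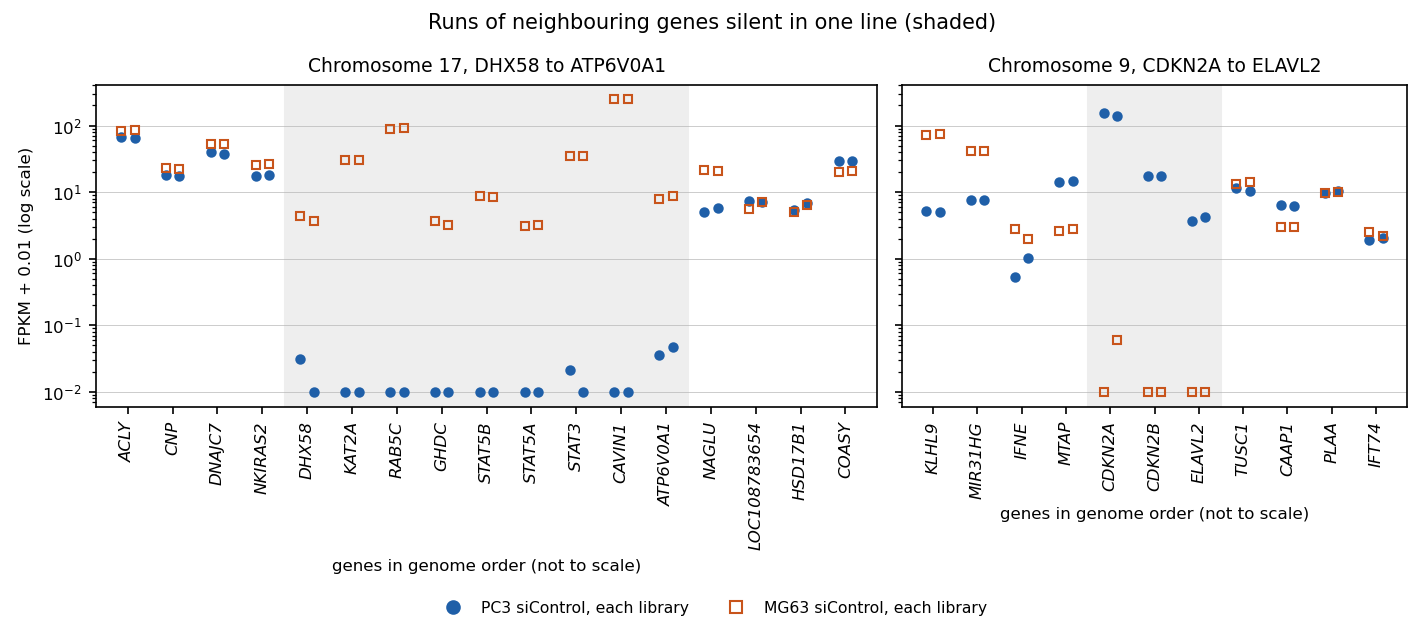
FPKM + 0.01 on a log axis in each siControl library of the genes of the chromosome 17 run and of the chromosome 9 run with their flanking genes in order. The 9 genes from DHX58 to ATP6V0A1 drop to the bottom in PC3 between NKIRAS2 and NAGLU, and CDKN2A, CDKN2B and ELAVL2 do so in MG63.

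Genes of some chromosomes lay toward 1 line. The median log2 difference lay between -0.52, for chromosome 5 (760 genes) and chromosome 22 (386 genes), and 1.25, for chromosome X (516 genes). On chromosome X 57.9% of tested genes were at least 2-fold higher in PC3 and 10.9% in MG63, compared with 22% and 21.8% of all genes. Chromosome 14 had a median of 0.91 (519 genes) and chromosome 7 one of 0.66 (802 genes). Of 267 windows of 10 Mb with at least 20 tested genes, the lowest median was -2.48 on chromosome 9 from 10 to 20 Mb (20 genes) and the next -1.71 on chromosome 16 from 50 to 60 Mb (62 genes). The highest were 3.38 on chromosome 9 from 60 to 70 Mb (25 genes) and 3.01 on chromosome 15 from 20 to 30 Mb (32 genes), the window of the run around SNRPN. Genes of a window are not independent and these medians carry no test.

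**Figure D5:**
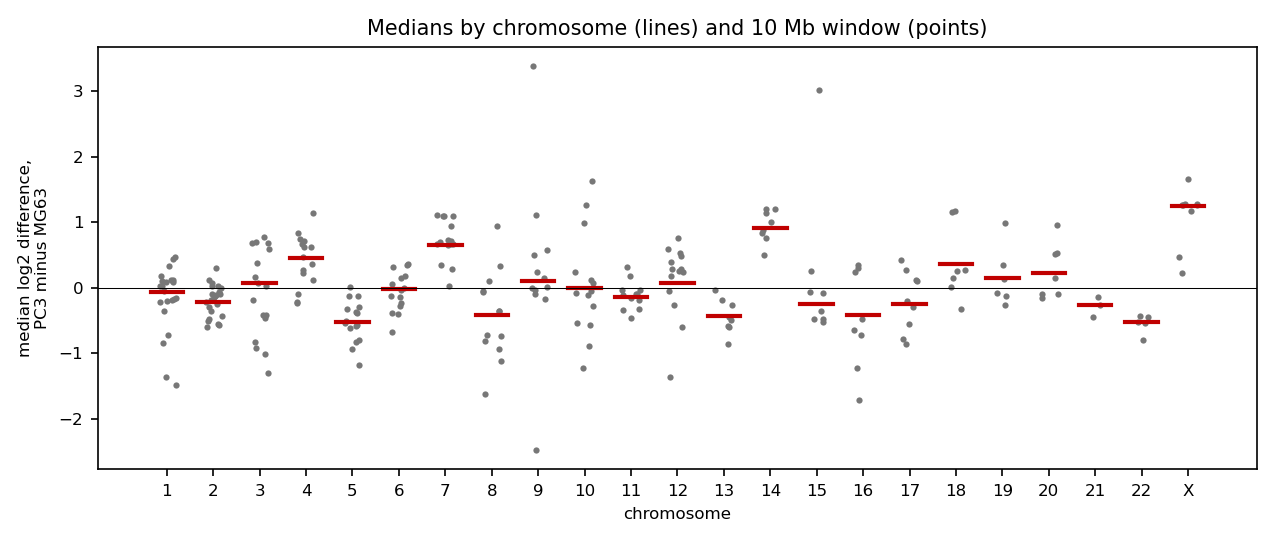
Median log2 difference (PC3 minus MG63) of tested genes, as a line per chromosome and a point per 10 Mb window with at least 20 tested genes. Chromosome X, at 1.25, and chromosome 14, at 0.91, have the highest chromosome medians, and single windows of chromosomes 9 and 15 exceed 3.

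The difference between the lines was also measured in the libraries with the other siRNAs, which are other samples of the same lines. PC3 and MG63 differed at 12952 genes (80.6%) under siLARP4A and at 12968 (80.7%) under siLARP4B. Of the 7043 genes with at least a 2-fold difference under siControl, 6723 (95.5%) passed in the same direction under siLARP4A, 6619 (94.0%) under siLARP4B and 6443 (91.5%) under both. The log2 difference changed by a median of 0.21 under siLARP4A and 0.30 under siLARP4B, regardless of sign. CDH1, EPCAM, CTNNA1 and COL1A1 were among those kept under both, with log2 differences for CTNNA1 of -8.85 and -8.70 beside -8.77, and for ZEB1 of -1.85 and -2.28 beside -2.09. The opposite sign was seen for 40 genes under siLARP4A, of which 4 passed, and for 93 under siLARP4B, of which 13 passed. Of the 129 genes restricted to PC3, 104 (80.6%) again had at most 3 fragments in all 4 MG63 knockdown libraries, and 128 had at most 10. Of the 148 restricted to MG63, 100 (67.6%) and 140 did so in the 4 PC3 knockdown libraries. Both parts of the rule, with at least 5 FPKM in every knockdown library of the expressing line, were met by fewer. They were 88 (68.2%) of the genes restricted to PC3 and 86 (58.1%) of those restricted to MG63.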

How the data were processed

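RNA-seq of the siControl libraries of PC3 and MG63 was analysed, 2 libraries per line of 12 in all. The authors deposited, per the file headers, for each library a whole-number fragment count per gene model, FPM, a signal that scales the count to the library total (exons shared by models are counted in each), and FPKM. Per the submitters' processing notes, FastQC, HISAT2, featureCounts and edgeR were used with build hg38. Versions and the treatment of strand are not given in the sources used here. FPM equalled count over library total, and FPKM equalled FPM per kilobase, within 0.001 in all values checked. In 1 file, 18 values in an unnamed column were not used.

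From 86394 models, the model with the largest count over all libraries was kept for each of 28163 symbols on chromosomes 1 to 22 and X, and models on alternative sequences were left out (1268 symbols have some). Counts of all 12 libraries were fitted by group means with edgeR 4.0.16 in R 4.3.3 (TMM scaling, filterByExpr, quasi-likelihood F-test, Benjamini-Hochberg adjustment over 16066 genes, threshold 0.05, common dispersion 0.0030), and the contrast PC3 minus MG63 under siControl was taken. Errors of log2 differences are standard errors. Levels were summarised with pandas 2.3.3, exact intervals with scipy 1.17.1, figures with matplotlib 3.10.9, and 96.1% of symbols matched RefSeq. Each group's libraries differed beyond counting noise, and replicate numbers did not pair the lines (correlation of deviations -0.0076).

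Genes are named by rule: 32 fixed genes, the 10 largest differences each way with at least 5 FPKM, the leading members of each of 25 lists, the 10 best expressed restricted genes of each line, and silent runs of at least 3 genes or with a tumour suppressor. Other list members, such as GRHL2, FOLH1, PTPRC and COL6A1, the genes flanking runs and those of changed sign were named after their values were seen. Some genes that the rule names are not reported here. The lists and the genes were chosen with earlier results of these data known. Alternatives were DESeq2 1.42.0, limma 3.58.1 on log2(FPKM + 1), library totals, other filters and models, a deduplicated table, a replicate block, leaving out each library and other limits for restricted genes and runs. Restriction to symbols without alternative sequences, runs of models of at least 200 bases and leaving out libraries for restricted genes and runs were chosen after seeing the data.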

Additional observations from a re-analysis of the deposited data

Results flagged for a closer look

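Of the 7043 genes at least 2-fold different under siControl, 4 passed with the opposite sign under siLARP4A and 13 under siLARP4B. Only genes of this kind with a mean of at least 5 FPKM in either line were examined. In 5 of them the line difference turned its sign after knockdown of a LARP4 gene and passed in both conditions. The change itself passed an interaction test (edgeR quasi-likelihood, Benjamini-Hochberg). Less expressed genes that changed sign, such as YTHDC1 (log2 difference -1.30 under siControl, 2.51 under siLARP4A), were left out. ALDH3B1, an aldehyde dehydrogenase gene, had a log2 difference of -1.46 under siControl and 0.35 under siLARP4B, a change of 1.81 (adjusted p = 1.9e-07). PABPC1L, a gene for a poly(A)-binding protein, went from -1.04 to 0.29, a change of 1.33 (adjusted p = 3.3e-06). OAS1, an interferon-induced gene, went from 1.01 to -0.62 under siLARP4B, a change of -1.64 (adjusted p = 2.1e-06), and PHACTR3, a regulator of protein phosphatase 1, from 1.55 to -0.46, a change of -2.01 (adjusted p = 5.5e-07). SBNO2 went from -1.48 to 1.54 under siLARP4A and 1.29 under siLARP4B, changes of 3.03 (adjusted p = 0.00032) and 2.78 (adjusted p = 0.00019). Its siControl libraries held 159 and 244 fragments in PC3 against 600 and 395 in MG63, a wide spread within each line.

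Fragments were also counted to gene models on alternative sequences of the assembly, which entered no comparison. The 4 genes given here are examples with more than 3 such fragments in every siControl library. Other genes, among them ABCC1, TUBB and RNF5, were also above that limit in every siControl library. HLA-B had 72 and 126 such fragments in PC3 and 6063 and 5622 in MG63, and HLA-C 983 and 1137 against 3247 and 3419. DDR1 had 78 and 112 against 197 and 111, and MRPL23 146 and 282 against 625 and 748. The values of these genes at their primary loci are therefore only part of their signal, and MRPL23 was counted as silent in MG63 from its primary locus alone.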

How the results depend on the processing

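The number of genes differing between the lines stayed within 1.5 times of 12979 in all alternatives run but 1: it was 8139 (4123 higher in PC3, 4016 in MG63) when a mean of 5 FPKM was asked for, which leaves 9446 genes to test. The 7043 genes with a 2-fold difference were 3399 under that filter and 4367 (2559 in PC3, 1808 in MG63) with limma on log2(FPKM + 1), a scale that understates low genes. With the replicate block 12505 and 6593 genes passed, and it ended 1 call among the named genes (HLA-C); replicate numbers are only shared labels here. Library totals in place of TMM moved the median of all genes to 0.156 and limma moved it to 0.107, so small differences depend on the scaling. Under these 2 settings in turn the log2 difference changed sign for CTNND1 (0.074, 0.090), LARP4B (0.063, 0.071), MAGED1 (0.13, 0.14), MMP1 (0.11, 0.12) and TGFB1 (0.11, 0.13), none of which had passed. MAGED1 was 0.0060 without a filter, and leaving out 1 library in turn gave -0.14 to 0.039 for MMP1 and -0.10 to 0.016 for TGFB1. CTNND1 passed without PC3 replicate 1 (-0.14, adjusted p = 0.041). CTNNB1, ITGA3, LAMA5 and TGFBR2 lost their calls under both scalings, and CIITA with limma. Restricted genes, 129 in PC3 and 148 in MG63, were 64 and 60 at 0 fragments, 200 and 229 at up to 10 fragments, 382 and 418 at 1 FPKM and 48 and 41 at 20 FPKM. Leaving out 1 library gave 137 to 150 and 158 to 181. Silent runs were 34 at 0 fragments, 93 to 102 without 1 library and 69 with models of at least 200 bases. The median of chromosome X ranged from 0.906 (limma) to 1.40 (library totals). Of 50 list counts the filter of 5 FPKM moved 28 by over 1.5 times and limma 15, all toward fewer calls. Fewer than about 3 fragments cannot be told from 0 at this depth.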

Other observations

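The 53 cytosolic ribosomal protein genes of a list that does not hold the whole family were all tested, and 28 were higher in PC3 and 20 in MG63, but 4 and 2 by at least 2-fold (median log2 difference 0.13). The largest difference among these 53 was that of RPS24, at 4332 ± 51.8 against 665 ± 19.4 FPKM (log2 difference 2.52 ± 0.043). RPL8 (1.35), RPS4X (1.31) and RPS29 (1.18) were also higher in PC3, and RPL26 (-1.11) and RPS6 (-1.07) in MG63. Many of these genes have processed copies elsewhere in the genome that can share their fragments.

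Of 28 antigen presentation genes 14 were tested, 2 at least 2-fold higher in PC3 and 2 in MG63 (median log2 difference -0.31). These counts and the median use primary loci alone, so they do not describe the whole signal. HLA-B was counted toward PC3 (log2 difference 1.85). Among its alternative-sequence models, the largest count on any 1 model per library was 72 and 126 fragments in PC3 against 6063 and 5622 in MG63. NLRC5, which activates MHC class I genes, was at 0.565 ± 0.0269 against 5.79 ± 0.209 FPKM (log2 difference -3.53 ± 0.10), and its counterpart for class II, CIITA, at 0.994 ± 0.124 against 1.2 ± 0.0535 FPKM (log2 difference -0.45 ± 0.10). The invariant chain gene CD74 did not pass, at 1.18 ± 0.113 against 1.26 ± 0.115 FPKM. No direction over all models is given for HLA-B, HLA-C or B2M, since each has further models on alternative sequences.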
